A study of Mus musculus with 2 samples.

Results

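Tuba1a, Stmn1, Stmn2 and Actg1 encode proteins of the microtubule and actin cytoskeleton that growing neurons make in large amounts. The 4 genes were taken from the authors' deposited table by symbol, and each had 1 row among its 2381 rows. They were chosen by their FPKM in the 2 libraries (high abundance and a lower level in the Trrap-deleted one), so these values are given below as a description, with no test. The series measured RNA of E14.5 mouse cortex, on a B6/129 background, with 1 library per genotype. The Trrap-deleted library came from TrrapF/F NestinCre+ embryos, in which both floxed copies of Trrap, a scaffold of histone acetyltransferase complexes, are removed by Cre under the Nestin promoter in neural progenitors and their progeny. The control, entered as wild type, was TrrapF/+ NestinCre+, so it also carried Cre and 1 floxed allele. Whether embryos were pooled, and their sex, is not stated in the labels. The deletion acts on cells with Nestin promoter activity, so blood vessels, microglia and meninges of the same cortex are not its main target.

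Microtubules are hollow polymers of alpha- and beta-tubulin pairs, and a newborn neuron needs a steady supply of both to migrate and to extend its axon. Stathmins bind free tubulin pairs and promote the shortening of microtubules, which keeps the polymer in the growth cone dynamic. Actin filaments drive the leading edge of the growth cone, and cytoplasmic beta- and gamma-actin, the products of Actb and Actg1, are the isoforms of non-muscle cells. Mutations of the human counterpart of Tuba1a are known for causing lissencephaly and related malformations of the cortex.

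The stathmin, tubulin and actin genes differ in how well sequencing reads can tell them from their relatives. The 2 stathmins, whose levels were lower by nearly the same factor, are shown over coding bases 241 to 360 of Stmn1, counted from the A of the start codon, and the aligned bases of Stmn2, because they can be told apart by sequence. The sequences were read from GENCODE M21 transcripts (GRCm38), and capitals in Stmn2 mark the bases that differ from Stmn1. Stmn1 and Stmn2 differ at 28 of these 120 bases, in exon 4 of both genes (GRCm38, chr4:134472858-134472977 and chr3:8554846-8554965, both on the plus strand).
Stmn1: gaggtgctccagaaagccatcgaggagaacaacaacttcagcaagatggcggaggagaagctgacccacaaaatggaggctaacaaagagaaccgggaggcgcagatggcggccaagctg
Stmn2: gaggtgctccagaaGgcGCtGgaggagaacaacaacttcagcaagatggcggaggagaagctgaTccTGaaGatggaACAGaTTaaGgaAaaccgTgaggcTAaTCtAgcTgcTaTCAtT

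Over the whole coding sequence, Tuba1a was 98.3% identical to Tuba1b and 97.6% to Tuba1c, Actg1 was 88.7% identical to Actb, and Stmn1 was 73.6% identical to Stmn2 over the bases that align. Of the 2024 windows of 50 bases in the Stmn2 transcript, 0 occurred in a transcript of another gene. The share of such windows found in other genes was 36.5% for Stmn1, 56.7% for Actg1 and 75.5% for Tuba1a. Neither the read length nor the handling of reads with several matches was found in the labels. By windows of this length, the level of Stmn2 is thus the one of the 4 least exposed to reads of relatives, and that of Tuba1a the most exposed.

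All 4 genes had lower levels in the Trrap-deleted cortex, and the 2 stathmins had the lowest ratio of Trrap-deleted to control. The values are FPKM, a fragment count normalised to transcript length and to sequencing depth, and fold changes are Trrap-deleted over control. With 1 library per genotype no value has a standard deviation, the spread between embryos is unknown, and so is the depth of both libraries. The table holds only loci that passed the authors' own test at a q-value of 0.05, so a gene without a row is called not listed, which does not mean unchanged. In a bulk sample, fewer cells of a type and less RNA per cell cannot be told apart.

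Stmn1, which encodes stathmin 1, a tubulin-binding phosphoprotein made by both dividing progenitors and young neurons, had 762 FPKM in the control and 258 FPKM in the Trrap-deleted library. Its level was 2.96-fold lower (log2 fold change -1.56), at mm9 chr4:134024235-134029758. Stmn2, which encodes the neuron-specific stathmin SCG10 of growing axons, had 158 FPKM in the control and 53.9 FPKM in the Trrap-deleted library. That is 2.93-fold lower (log2 fold change -1.55), at mm9 chr3:8509527-8561604. The 2 stathmins lay at very different levels, but their differences between the libraries were nearly equal: Stmn1 had 4.83 times the FPKM of Stmn2 in the control and 4.78 times in the Trrap-deleted library. Such a ratio within a library does not depend on how the libraries were scaled against each other.

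Tuba1a, the main alpha-tubulin of postmitotic neurons, had 3115 FPKM in the control and 1491 FPKM in the Trrap-deleted library. Its level was 2.09-fold lower (log2 fold change -1.06), at mm9 chr15:98780272-98783982. Tuba1a alone held 2.42% of the summed FPKM of all listed rows in the control against 1.47% in the Trrap-deleted library. It had the highest level of the 4 in both libraries and was the second most abundant row of the table in each.

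Actg1, cytoplasmic gamma-actin, had 1462 FPKM in the control and 939 FPKM in the Trrap-deleted library. This was the smallest relative difference of the 4, 1.56-fold lower (log2 fold change -0.64), at mm9 chr11:120207004-120209856. In the authors' deposited table the q-value of Actg1 was 0.00337, and those of the other 3 genes were written as 0. The order of levels was Tuba1a, Actg1, Stmn1 and Stmn2 in both libraries. No spread between embryos can be set beside this order.

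**Figure D1:**
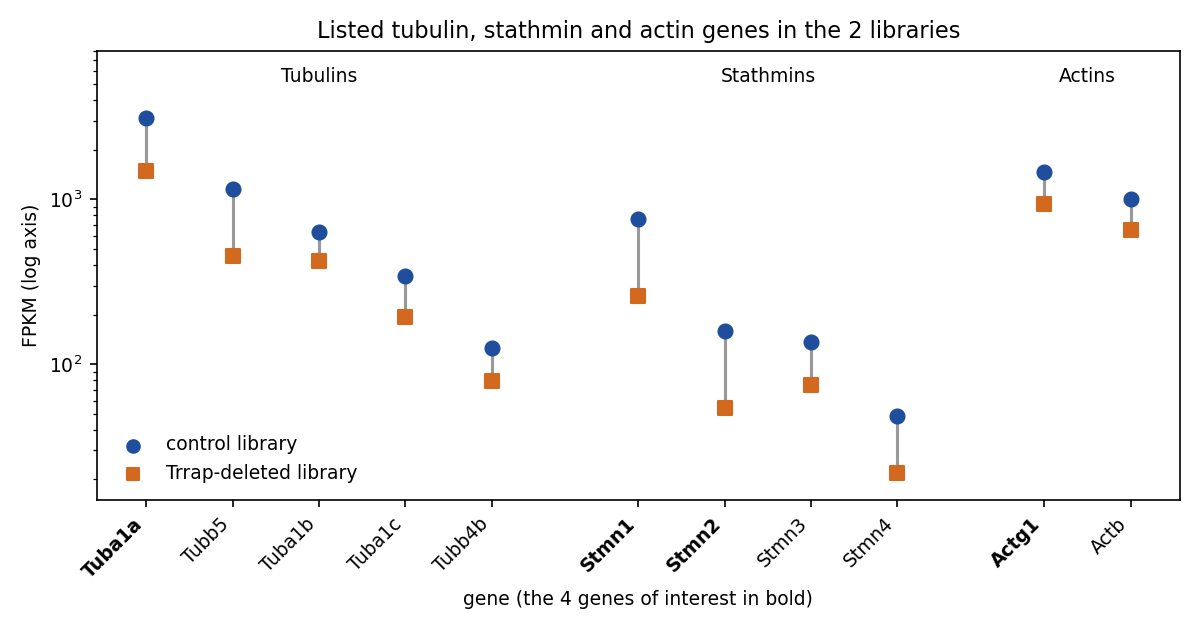
FPKM (log axis) of every listed single-gene row of the alpha- and beta-tubulin, stathmin and actin lists, with circles for the control library and squares for the Trrap-deleted library, 1 library each. In all 11 genes the square lies below the circle, and the longest lines, which on this axis show the relative difference, are those of Stmn1 and Stmn2.

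Together the 4 genes went from 5497 summed FPKM in the control to 2742 in the Trrap-deleted library, while the sum over all listed rows went from 128624 to 101177. The 4 thus held 4.27% of the listed FPKM in the control against 2.71% in the Trrap-deleted library. Being lower was common at this abundance. Of all 2381 listed rows 42.0% were lower, but of the 291 rows with at least 100 FPKM in the control 89.3% were, and of the 50 most abundant rows 98.0%. The 291 rows were picked by the control level alone. Rows that are high only in the Trrap-deleted library are left out, so their share leans towards lower. The 50 rows were ranked by the mean of both libraries. The direction of Tuba1a and Actg1, which are abundant by the rule, therefore matches nearly all rows of like abundance.

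The size of the difference set the stathmins and Tuba1a lower than most abundant rows, and did not do so for Actg1. The median log2 fold change of the 291 rows was -0.61, and that of the 50 most abundant rows by mean FPKM was also -0.61. In order from the lowest log2 fold change among the 291 rows, Stmn1 was number 11, Stmn2 number 14, Tuba1a number 35 and Actg1 number 131. Stmn2, at 53.9 FPKM in the Trrap-deleted library, is among the 291 rows only through its control level. A level at least 2-fold lower was found for 14.1% of these rows and for 13.6% of all listed rows. It was found for 3 of the 4 genes, a count to which the choice of the genes contributed. Stmn1 had the lowest log2 fold change of the 50 most abundant rows. The 10 most abundant rows held 4 of tubulin and actin (Tuba1a, Actg1, Actb and the shared row of Tubb2a and Tubb2b), beside CT009594.1, Rps15a, Ptma, Hsp90ab1, Gm15148 and a row shared by Rpl13a and Flt3l. The 34 listed ribosomal protein genes, the other large class of abundant transcripts, had a median log2 fold change of -0.58, with 33 lower, which is close to the value of Actg1.

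**Figure D2:**
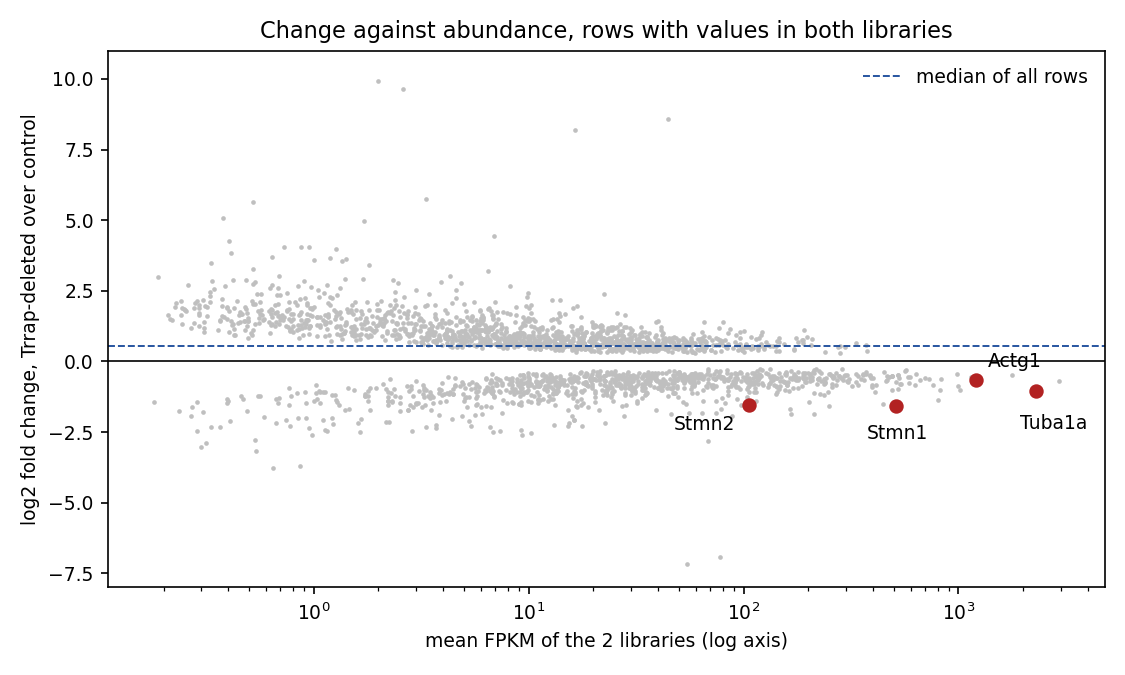
Log2 fold change (Trrap-deleted over control) against the mean FPKM of the 2 libraries (log axis) for the 2376 rows with a value in both, 1 point per row, with the 4 genes in red and the median of all rows, 0.54, as a dashed line. The right-hand end of the plot lies mostly below 0; Actg1 sits in the middle of that group and Stmn1 and Stmn2 near its lower edge.

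All 4 stathmin genes were listed, and all 4 were lower. Beside them, 42.0% of all listed rows and 89.3% of rows with at least 100 FPKM in the control were lower. Stmn4, the family member also known as RB3, had 48.4 FPKM in the control and 21.7 FPKM in the Trrap-deleted library, 2.23-fold lower. Stmn3, also known as SCLIP, had 136 and 75.1 FPKM, 1.81-fold lower. The median log2 fold change of the family was -1.35, beside 0.54 over all rows and -0.61 over rows with at least 100 FPKM in the control, a level that 3 of the 4 reached; Stmn1 and Stmn2 were themselves chosen for being lower. The summed level of the family was 2.70-fold lower. Within the neuronal stathmins the differences were unequal: Stmn2 had 1.16 times the FPKM of Stmn3 in the control and 0.717 times in the Trrap-deleted library, so their order reversed.

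Of 8 alpha-tubulin genes 3 were listed and of 8 beta-tubulin genes 2, all lower, beside 42.0% lower of all listed rows. All of them had at least 100 FPKM in the control, where 89.3% of rows were lower, and Tuba1a was chosen for being lower. Tuba1b, the alpha-tubulin made by most dividing cells, had 633 FPKM in the control and 423 FPKM in the Trrap-deleted library (log2 fold change -0.58). Tuba1c had 345 and 193 FPKM (log2 fold change -0.84). Tuba1a had 4.92 times the FPKM of Tuba1b in the control and 3.52 times in the Trrap-deleted library, so the row of the neuronal isotype was lower by a larger factor than that of its near-identical neighbour. Because reads of these genes may have been split between them, their sum is also given: the 3 alpha-tubulins together had 4092 FPKM in the control and 2107 FPKM in the Trrap-deleted library, 1.94-fold lower.

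Tubb5, an abundant beta-tubulin of progenitors and neurons, had 1156 FPKM in the control and 452 FPKM in the Trrap-deleted library. Its log2 fold change of -1.35 was below that of Tuba1a. Tubb4b had 125 and 79.0 FPKM (log2 fold change -0.66). Tubb2a and Tubb2b share 1 row, at 1351 FPKM in the control and 927 FPKM in the Trrap-deleted library (log2 fold change -0.54), and were not counted in the list. The neuron-specific beta-tubulin gene Tubb3 was not listed, and neither was any of 9 genes of gamma-tubulin, its ring complex and the other tubulins.

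Of 6 actin genes 2 were listed, and both were lower by nearly the same factor. Actb had 1001 FPKM in the control and 656 FPKM in the Trrap-deleted library, 1.52-fold lower. The ratio of Actg1 to Actb was 1.46 in the control against 1.43 in the Trrap-deleted library. The 4 muscle actin genes were not listed. Over the tubulin, stathmin and actin families, 11 of 26 genes were listed, and all 11 were lower as deposited. They stayed lower at equal summed FPKM, a shift of 0.35 against a smallest log2 fold change of -0.58 (Tuba1b). Setting the median of all rows to 0 shifts every value by -0.54, so it could turn none of them to higher. The 11 include the 4 genes chosen for being lower, and 10 of the 11 had at least 100 FPKM in the control, where 89.3% of rows were lower as deposited.

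Rows of processed pseudogenes, intronless genomic copies of a transcript, were also listed. Those of Stmn1 and Actg1 lay at most 0.12 from their parent in log2 fold change, and 4 of the 5 of Tuba1a lay at least 0.2 above it. The table listed 8 processed pseudogenes and 3 coding relatives that share windows of 50 bases with Tuba1a, Stmn1 or Actg1, and all 11 were lower. All 11 had at least 100 FPKM in the control, where 89.3% of rows were lower. Gm11223, which holds 34.7% of the windows of Stmn1, had 659 FPKM in the control and 230 FPKM in the Trrap-deleted library, a log2 fold change of -1.52 beside -1.56 for Stmn1. Actg-ps1, which holds 22.3% of the windows of Actg1, had 331 and 212 FPKM, a log2 fold change of -0.65 beside -0.64. For Tuba1a the 5 listed pseudogenes lay between -1.001 (Gm17383) and -0.77 (Gm5620), beside -1.06 for the gene itself.

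Whether reads of the parent genes were placed on these copies was not tested, and the levels of the pseudogene rows are uncertain. Some rows do not match the annotated copy in length: that of Gm8399 spans 675228 bases against an annotated 1117, and that of Gm6682 spans 297 against 1346. Summed with their listed relatives, Stmn1 was 2.91-fold lower, Tuba1a 1.89-fold lower and Actg1 1.54-fold lower, close to the values of the single rows. These sums cannot show whether reads were shared, because some relatives have no row. Gm12715, with 51.1% of the windows of Actg1, and Gm3226, with 40.8% of those of Tuba1a, were not listed. The Actg1 sum includes Actb, at 1001 FPKM in the control, which holds 1.58% of the windows of Actg1. Stmn2, for which no such window was found in another gene, was 2.93-fold lower.

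**Figure D3:**
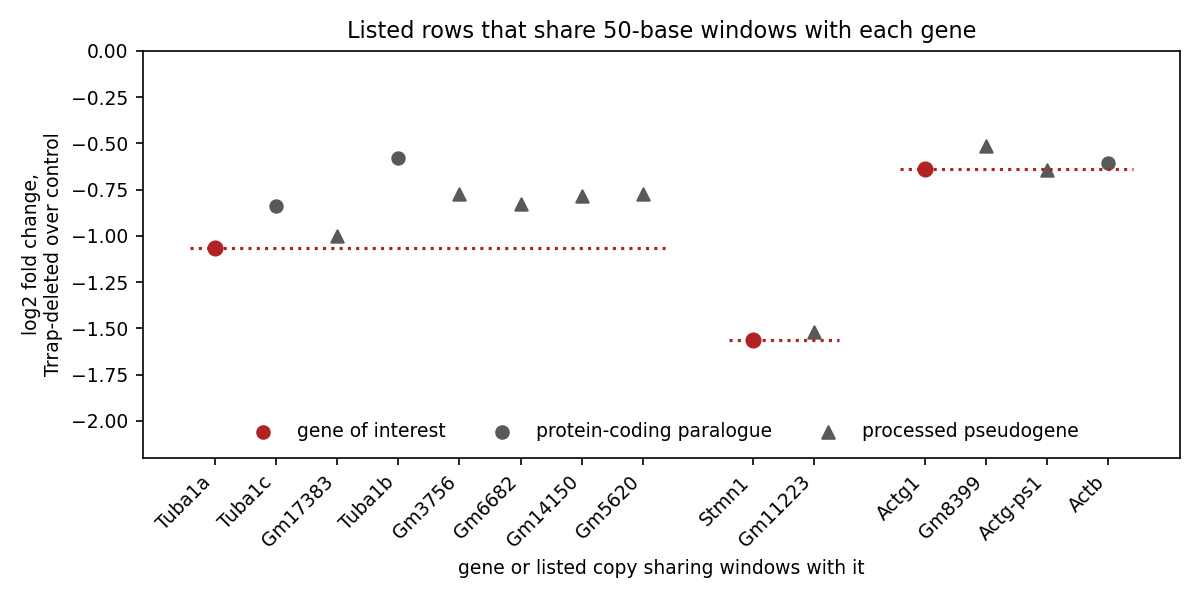
Log2 fold change (Trrap-deleted over control) of Tuba1a, Stmn1 and Actg1 (red, with a dotted line at the value of each) and of the listed rows that share 50-base windows with them, coding relatives as circles and processed pseudogenes as triangles. The copies of Stmn1 and Actg1 lie at most 0.12 from their parent on this scale and those of Tuba1a lie above it, with Tuba1b farthest away at a distance of 0.48.

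Of 20 genes whose proteins work beside tubulin and actin in the growth cone, 12 were listed, 11 lower and 1 higher, with a median log2 fold change of -0.58. Most are abundant: 10 of the 12 had at least 100 FPKM in the control, and the list lay near the rows of that level, of which 89.3% were lower with a median of -0.61. Basp1 turned to higher when the libraries were set to equal summed FPKM, which left 10 lower, and all 12 were lower with the median of all rows set to 0. Dpysl3, a collapsin response mediator that binds tubulin, had 374 FPKM in the control and 127 FPKM in the Trrap-deleted library (log2 fold change -1.56). Dpysl4 of the same family had 31.1 and 14.6 FPKM (log2 fold change -1.09). Dpysl2 had 34.5 and 18.8 FPKM (log2 fold change -0.87).

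Fscn1, which bundles actin in the spikes of the growth cone, had 244 FPKM in the control and 148 FPKM in the Trrap-deleted library. With Crmp1 and Dpysl5, all 5 genes of the collapsin response mediator family were listed and lower, with log2 fold changes from -1.56 to -0.44, a group picked out after its values were seen. The exception of the list, Gpm6a, a membrane glycoprotein of growing neurites, had 211 FPKM in the control and 266 FPKM in the Trrap-deleted library and was likewise named after its value was seen; it turned to lower with the median set to 0. Gap43, the best known growth cone protein gene, was not listed.

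Genes that bind or fold the subunits were fewer in the table. Of 19 genes of tubulin folding and the chaperonin 3 were listed, all lower and all at a level in the control where 89.3% of rows were lower: Cct3 (216 and 136 FPKM), Cct4 (170 and 114 FPKM) and Cct7 (130 and 102 FPKM in control and Trrap-deleted libraries), subunits of the ring that folds actin and tubulin. Of 29 microtubule-associated protein genes 6 were listed, 4 lower and 2 higher, beside 42.0% lower of all listed rows. Of these 6 genes 1 had at least 100 FPKM in the control. Dclk1, a doublecortin-like kinase, had 40.6 FPKM in the control and 21.3 FPKM in the Trrap-deleted library, and Mapt, the gene of tau, had 70.3 and 44.1 FPKM. Clasp1, which stabilises plus ends, had 45.1 and 30.0 FPKM. Mtap7d2 was higher, at 6.29 FPKM in the control and 12.5 FPKM in the Trrap-deleted library. Mapre3 shares a row with Tmem214 and was not counted. That row was higher, at 40.7 FPKM in the control and 72.9 FPKM in the Trrap-deleted library (log2 fold change 0.84). Dcx and Map2 were not listed.

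Actin-binding genes split by direction. Of 21 genes of monomer binding and turnover 4 were listed, 2 lower and 2 higher, beside 42.0% lower of all listed rows. Tmsb10, thymosin beta 10, which holds actin monomers in reserve, had 294 FPKM in the control and 110 FPKM in the Trrap-deleted library (log2 fold change -1.42). Dstn, the depolymerising factor destrin, had 137 and 95.9 FPKM. Ssh1, a phosphatase that activates cofilin, was higher at 5.75 and 8.81 FPKM, and Gsn, the severing protein gelsolin, was higher at 0.692 and 2.45 FPKM. Both lower genes were thus far more abundant than the higher ones.

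Of 30 genes of actin nucleation and elongation 6 were listed, 3 lower and 3 higher as deposited, beside 42.0% lower of all listed rows. Of the 6 genes, 2 were lower at equal summed FPKM and 4 with the median of all rows set to 0. None of them had at least 100 FPKM in the control. Actr3b (8.18 FPKM in the control and 16.0 FPKM in the Trrap-deleted library), Cyfip2 (29.7 and 44.6 FPKM) and Wasf3 (10.7 and 14.8 FPKM) were the higher 3. Enah, which elongates filaments at the leading edge, had 61.7 and 44.4 FPKM. Wasf3 turned to lower with the median set to 0, and Actr3, named for this reason, turned to higher at equal summed FPKM.

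Intermediate filament genes gave 4 listed of 8, 3 lower and 1 higher, beside 42.0% lower of all listed rows. Vim, the vimentin of radial glia, had 632 FPKM in the control and 387 FPKM in the Trrap-deleted library. Ina, alpha-internexin of young neurons, had 65.8 and 48.4 FPKM, and Prph, peripherin, had 1.43 and 0.699 FPKM. Nefm, the medium neurofilament, which appears later in axon growth than Ina, was higher at 5.26 and 7.91 FPKM.

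**Figure D4:**
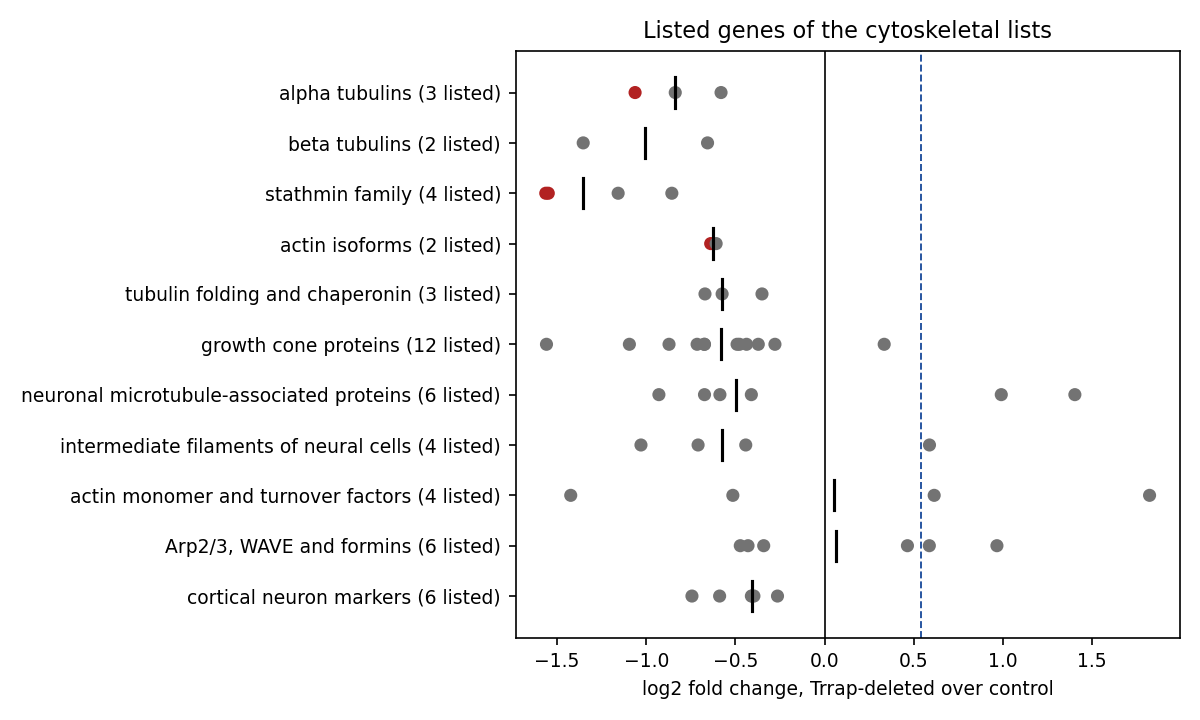
Log2 fold change (Trrap-deleted over control) of the listed genes of 11 lists, 1 point per gene, with Tuba1a, Stmn1, Stmn2 and Actg1 in red, a bar at the median of each list and the median of all rows, 0.54, as a dashed line. The tubulin, stathmin, actin, folding and neuron marker lists lie wholly below 0, and the growth cone list has 1 gene above it. The microtubule-associated protein, intermediate filament and actin-binding lists straddle 0.

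Actg1 is known as a target of serum response factor, a transcription factor whose coactivators sense the pool of free actin, and its promoter carries the site. The stretch of 203 bases upstream of the starts annotated by RefSeq and GENCODE is printed 5′ to 3′ on the minus strand (RefSeq, GRCm38.p6, chr11:120348543-120348745). Capitals mark an E-box, CACGTG, 141 bases before the RefSeq start, and a CArG box 90 bases before it.
Actg1 promoter: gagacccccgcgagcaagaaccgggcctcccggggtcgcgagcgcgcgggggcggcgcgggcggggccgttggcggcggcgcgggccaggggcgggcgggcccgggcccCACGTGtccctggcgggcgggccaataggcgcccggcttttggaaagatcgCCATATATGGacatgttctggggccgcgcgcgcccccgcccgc

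Among 32851 RefSeq promoters, read over the 250 bases before the start, 1.47% held a CArG box and 6.02% held CACGTG; both motifs read the same on either strand. A match describes the letters and does not show binding. Of 18 genes in the list of serum response factor, its coactivators and their targets 2 were listed, 1 lower and 1 higher. Of all listed rows 42.0% were lower, and this list holds no actin gene. Flna, the actin crosslinker filamin A, was lower (195 FPKM in the control and 88.0 FPKM in the Trrap-deleted library). The immediate early gene Egr1 was higher, at a low level in both libraries (0.214 and 0.915 FPKM). Srf itself was not listed.

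The genes with the most similar differences were sought among single-gene rows of at least 100 FPKM in the control, by the distance in log2 fold change over the 2 libraries. For Stmn1 the nearest 3 were Dpysl3, the pseudogene Gm7332 and Stmn2, at distances up to 0.0135. For Stmn2 they were Gm7332, Dpysl3 and Stmn1. Tuba1a was nearest to Ldhb, a lactate dehydrogenase subunit, and to the pseudogenes Rpl10-ps1 and Rpl10-ps3. Actg1 was nearest to Ranbp1, a regulator of nuclear transport, and to the pseudogenes Gm4963 and Rpsa-ps2. With 1 library per genotype such closeness is a single value per gene.

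Of 14 markers of cortical neurons, some of them expressed by neurons in general, 6 were listed, all lower as deposited, with a median log2 fold change of -0.41 and a range from -0.74 to -0.26. Beside them, 42.0% of all listed rows and 89.3% of rows with at least 100 FPKM in the control were lower; 3 of the 6 have that level, and 3 of the 6 passed a q-value of 0.01 in the authors' deposited table. Neurod6, a transcription factor of cortical projection neurons (312 FPKM in the control and 260 FPKM in the Trrap-deleted library), became higher at equal summed FPKM. Nsg2, an endosomal protein of neurons, had 214 and 162 FPKM, and Nsg1 had 115 and 68.4 FPKM. Stmn2, with a log2 fold change of -1.55, and Tuba1a, at -1.06, lay below all 6, and Actg1, at -0.64, lay within their range. Stmn2, Tuba1a and Actg1 were chosen for being lower, which contributed to where they lay. Of 12 progenitor markers only Vim (lower, given above) and Neurog2 (higher as deposited, 89.6 and 112 FPKM) were listed, and Neurog2 turned to lower with the median of all rows set to 0. Neurod6, Fezf2 and Bcl11b, defining markers of cortical projection neurons, were thus present in both libraries.

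The libraries also differed in other ways that move with every value given here. Of 11 microglial markers 9 were listed, all higher (the most abundant being C1qb, Tyrobp and Csf1r), with a summed level of 12.3 FPKM in the control and 31.6 FPKM in the Trrap-deleted library. Of 8 meningeal markers 5 were listed, all higher (the most abundant being Dcn, Col3a1 and Col1a2), with sums of 2.66 and 15.4 FPKM. The 3 listed of 9 ventral telencephalic markers (Dlx2, Dlx5 and Lhx6) were lower, with sums of 10.7 and 2.35 FPKM, 1 erythroid gene of 8 (Hbb-y) was higher, and 0 of 6 endothelial markers were listed. Beside these counts, 42.0% of all listed rows were lower, so higher was the commoner direction. None of the listed microglial, meningeal or ventral genes reached 100 FPKM in the control. Xist went from 313 to 142 FPKM. By contrast, 3 Y-linked genes (Eif2s3y, Ddx3y and Kdm5d) rose from at most 0.111 FPKM each to between 3.99 and 32.8 FPKM. The control thus held Xist with little Y-linked RNA, and the Trrap-deleted cortex held both kinds. The sex of the material therefore differed between the libraries, but not as 1 sex against the other. Whether embryos of both sexes were pooled was not tested. Trrap was not listed and gave no check of the labels. The part of these differences in the levels of the 4 genes was not tested.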

How the data were processed

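The 2 libraries (TruSeq RNA kit, 2.5 µg of total RNA each, per the labels' protocols) were aligned with TopHat2 to mm9, per the submitters' processing notes. No source names the program that counted or tested. The deposited FPKM values were read as such from the Cuffdiff-like column layout, per the file headers. The p-value and q-value columns are the authors' deposited values, and their test statistic, a score in the deposited table, was not used. The deposited log2 fold change equalled log2 of the FPKM ratio to within 1.18e-05. Read totals are unknown, so no counting error could be given.

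Levels were compared as deposited, with Python 3.11.15 and pandas 2.3.3. List counts used single-symbol rows above 0 in both libraries. The 4 genes and 20 gene lists were chosen with earlier results of these data known. Genes were named by rule: the 4 genes, all listed family members, all listed genes of any other list with at most 4, otherwise the 4 with the largest difference among those of at least 5 FPKM, the 3 nearest in log2 fold change, the 10 most abundant rows, and for marker lists the most abundant genes; exceptions are stated. Table loci are on mm9 and starts were moved to 1-based counting; sequences are on GRCm38. Shared windows were counted on both strands of GENCODE M21 transcripts, 1 transcript per gene of interest. Summaries were tested on simulated data. Alternatives were rescaling, a pseudocount, other rankings, a filter of 5 FPKM and a q-value under 0.01. Coding stretches of the tubulin and actin genes are not reported here.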

Additional observations from a re-analysis of the deposited data

How the results depend on the processing

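No paired analysis was possible because each genotype had 1 library. All 4 genes stayed lower under every scaling tried, but the size moved. Setting the median log2 fold change of all rows to 0 shifts every value by -0.54, so it could turn no lower gene to higher. The values were then -1.61 (Tuba1a), -2.11 (Stmn1), -2.09 (Stmn2) and -1.18 (Actg1). At equal summed FPKM of the listed rows, a shift of 0.35, they were -0.72, -1.22, -1.20 and -0.29. Leaving the 10 most abundant rows out of that sum gave -0.77, -1.27, -1.26 and -0.35. A pseudocount of 1 FPKM moved Stmn2 to -1.53 and the other 3 by under 0.005.

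The abundance rank of Stmn1, 29 by mean FPKM, was 17 by control FPKM and 66 by Trrap-deleted FPKM. That of Stmn2 was 255, 185 and 442. Among symbols annotated as protein-coding the ranks were 1 for Tuba1a, 3 for Actg1, 24 for Stmn1 and 165 for Stmn2. At a q-value under 0.01 the growth cone list had 8 listed genes, 7 of them lower, since fewer rows remain. In the other cytoskeletal lists the number of lower genes stayed within 1.5 times under each setting. At that q-value the neuron markers had 3 listed genes, all lower, and the intermediate filament list 2; with the median set to 0 both listed progenitor markers, 2 of 2, were lower. Depth is unknown, so no detection limit could be set for genes that were not listed.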
